A study of Mus musculus with 12 samples.

Results

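The heme biosynthesis genes examined here are Alas1, Alas2, Alad, Uros, Urod, Cpox, Ppox and Fech, and their accessible chromatin was read from a list of ATAC-seq peaks. A peak was a member when the deposited gene name, the gene whose transcription start site (TSS) lies nearest to the peak center, was 1 of these 8 genes. This gave 36 of the 84243 peaks, and all 8 genes had at least 1. The rule itself uses the pathway and the deposited names, and no measured value.

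ATAC-seq uses a transposase that cuts exposed DNA, so that sequenced fragments collect at promoters, enhancers and other open sites. Wild-type C57BL/6 mice aged 8 to 12 weeks were the source of 12 samples, 2 replicates of each of 6 cell types sorted by flow cytometry. Bone marrow was the tissue of 5 of them: B cells, granulocyte/macrophages (GM), erythroid progenitors (EPs), megakaryocyte progenitors (MkPs) and hematopoietic stem cells (HSCs). The T cells carry the tissue label thymus. No treatment or engineered allele is given for any group, and nothing in the labels says whether animals were pooled. The study asked which regulatory elements of blood lineages are already open in HSCs. The authors merged the peaks of all 6 cell types into 1 master peak-list, and that list alone was analyzed. A peak in it carries no cell type, its score is 0 for each peak, and it holds no reads, so depth is unknown and no value has a replicate error. The sorted identities could not be checked against marker levels, and neither could the erythroid expression of Alas2. The results below are therefore a census of positions and DNA words with no test between cell types. A member is set beside the same count over the whole list, which is a complete count with no sampling interval.

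Heme is the iron-bearing ring of hemoglobin, cytochromes and catalase. Its synthesis starts in mitochondria, where glycine and succinyl-CoA are joined to 5-aminolevulinate, passes through the cytosol and ends in mitochondria with the insertion of iron. The first and rate-limiting step has a pair of enzymes: Alas1 serves nearly all tissues, while Alas2 on the X chromosome serves developing red cells, and the later enzymes are shared by both settings. GATA1, a zinc-finger factor of red cell development, binds the letters GATA, and CACCC boxes bind erythroid KLF1 and its relatives.

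The promoters of 3 genes show the contrast between Alas2 and shared genes, each given as the 150 bases before its TSS from RefSeq GRCm38 (mm10), 5′ to 3′ on the strand of the gene. A GATA word was AGATAA, in which thymine could stand first and guanine last. Capitals mark GATA words, CACCC words (CCNCNCCC), Sp words (GGGCGG) and NRF1 words (GCATGCGC) on either strand. CACCC words can overlap each other and Sp words.
Alas2 (chrX:150547267-150547416, plus strand): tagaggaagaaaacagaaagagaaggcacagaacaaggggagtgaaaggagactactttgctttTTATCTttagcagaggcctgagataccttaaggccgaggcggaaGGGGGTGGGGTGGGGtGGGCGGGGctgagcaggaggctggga
Alas1 (chr9:106247955-106248104, minus strand): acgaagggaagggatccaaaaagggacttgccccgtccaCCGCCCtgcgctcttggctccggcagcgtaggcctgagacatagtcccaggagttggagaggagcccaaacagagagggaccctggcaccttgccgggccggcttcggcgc
Cpox (chr16:58670058-58670207, plus strand): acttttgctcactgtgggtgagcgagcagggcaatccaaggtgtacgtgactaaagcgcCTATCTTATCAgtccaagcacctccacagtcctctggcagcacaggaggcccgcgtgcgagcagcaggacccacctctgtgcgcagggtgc
The Alas2 stretch held 3 CpG dinucleotides, 1 GATA word 84 bp before the TSS and a run of CACCC words. The Alas1 stretch held 10 CpGs, 1 Sp word and no GATA word. Cpox, a shared gene, had 7 CpGs and a pair of overlapping GATA words 89 and 84 bp before its TSS. The last 32 bases of the Alas2 stretch also belong to the antisense hairpin of Mir3620, described below.

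Outside promoters, the peaks of Alas2 introns 1 and 8 and of Uros intron 5 are shown as examples with GATA words near the peak center. Other member peaks, such as that of Urod intron 1, had such words but are not printed. The central 200 bases of each peak shown are given, and capitals mark GATA words.
Alas2 intron 1 (chrX:150549729-150549928, plus strand): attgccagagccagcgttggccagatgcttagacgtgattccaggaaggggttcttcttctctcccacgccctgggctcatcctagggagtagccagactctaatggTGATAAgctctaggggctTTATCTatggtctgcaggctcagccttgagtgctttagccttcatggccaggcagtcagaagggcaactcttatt
Alas2 intron 8 (chrX:150564741-150564940, plus strand): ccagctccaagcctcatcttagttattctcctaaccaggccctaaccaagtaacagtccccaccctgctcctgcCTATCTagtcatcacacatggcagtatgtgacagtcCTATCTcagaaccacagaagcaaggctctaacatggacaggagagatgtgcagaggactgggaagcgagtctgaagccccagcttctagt
Uros intron 5 (chr7:133698098-133698297, minus strand): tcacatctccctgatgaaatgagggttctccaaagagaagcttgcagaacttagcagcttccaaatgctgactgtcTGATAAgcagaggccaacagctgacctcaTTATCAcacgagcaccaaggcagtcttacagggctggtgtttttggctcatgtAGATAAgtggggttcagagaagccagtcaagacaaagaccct
The Uros peak is written on the strand of its gene. The remaining stretches are the 300 bases around the center of the Alas2 upstream peak with the most GATA words of any member peak, and the 150 bases before an internal TSS of Uros. The whole Alas2 upstream peak held 5 GATA words, of which 3 lie in the printed bases.
Alas2 upstream (chrX:150540096-150540395, plus strand): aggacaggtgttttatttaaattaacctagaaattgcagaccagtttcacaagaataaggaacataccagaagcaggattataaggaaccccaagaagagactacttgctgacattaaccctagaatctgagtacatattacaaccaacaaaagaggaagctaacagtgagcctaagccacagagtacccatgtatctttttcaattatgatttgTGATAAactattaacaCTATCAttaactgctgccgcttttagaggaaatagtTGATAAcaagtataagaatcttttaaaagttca
Uros internal TSS (chr7:133702501-133702650, minus strand): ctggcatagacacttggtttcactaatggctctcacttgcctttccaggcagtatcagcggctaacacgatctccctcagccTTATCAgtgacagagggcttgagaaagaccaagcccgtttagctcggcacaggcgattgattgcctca
In both, capitals again mark GATA words.

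Promoters came first in the comparison of Alas2 with the shared genes. A promoter peak was 1 with a center within 500 bp of a TSS by the deposited distance, and 10 of the 36 peaks (27.8%) met this, compared with 15.6% of the master peak-list. Uros had 3 promoter peaks and each of the other 7 genes had 1. At the RefSeq Select TSS, the 1 representative start per coding gene, 8 of 8 members had a peak within 500 bp, whereas 58.9% of 20963 coding genes did. The distance from that TSS to the nearest peak center ran from 14 bp in Urod to 228 bp in Uros and was 37 bp in Alas2. All members were thus open at their start in at least 1 of the cell types merged into the list.

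At the Select TSS, the Alas2 promoter differed from the other 7 in CpG ratio. From 250 bp before to 50 bp after the TSS, the observed-to-expected CpG ratio was 0.32 in Alas2. It was 0.58 in Cpox, 0.69 in Urod, 0.70 in Alad, 0.74 in Fech, 0.77 in Ppox, 0.85 in Alas1 and 1.16 in Uros. Alas2 was the lowest of the 8, and the next value, that of Cpox, was close to the median of all coding promoters (0.61). GC content spread less, from 52.3% in Alas2 and 53.3% in Urod to 65.7% in Fech. Across all coding genes the median CpG ratio was 0.78 for promoters with a peak and 0.23 for those without. Of the 6440 promoters at or under the ratio of Alas2, 15.4% had a peak, while 86.7% of the 10942 promoters at or above the ratio of Cpox had 1. Alas2 was therefore in the smaller share of CpG-poor promoters that were open, and the other 7 were in the range where most promoters were. Over the full promoter peak of Alas2 the ratio was 0.19, and 3.81% of the 13171 promoter peaks had a lower value. Low ratios were not restricted to Alas2, since the Uros promoter peaks away from the Select TSS had ratios of 0.41 and 0.14.

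**Figure D1:**
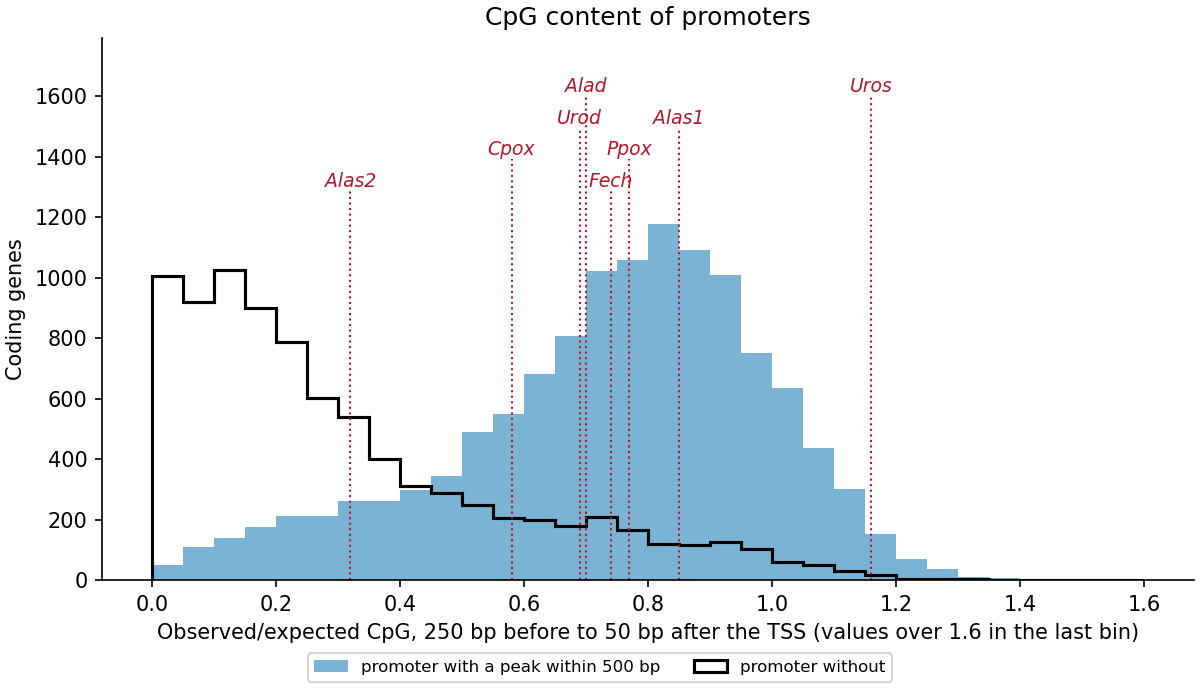
Observed-to-expected CpG ratio (horizontal axis, no unit) of coding promoters from 250 bp before to 50 bp after the TSS, as numbers of genes, with filled bars for promoters that have a peak within 500 bp and the black outline for those that do not. Dotted lines mark the 8 heme genes: Alas2, which has a peak, is at 0.32, where promoters without a peak outnumber those with one, and the other 7 lie between 0.58 and 1.16.

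Away from promoters, the peaks named for Alas2 were all on 1 side of the gene. Its 4 other peaks were all intergenic and upstream, at 7171, 31211, 35983 and 36564 bp from the TSS, with a median of 33597 bp. The 22 other peaks of the remaining 7 genes lay 589 to 22394 bp away, with a median of 5758.5 bp. The median for all 71072 peaks away from promoters was 22261 bp. No peak named for Alas2 was, away from the promoter, within 5 kb of the TSS. This compared with 10 of 22 for the remaining genes and 16.2% of the 71072 peaks. None was downstream of the TSS, compared with 15 of 22 and 58.3% of the 71072 peaks. By median, the distances of the shared genes were thus short relative to the list, and 3 of the 4 named for Alas2 were long. The 4 peaks had 36.7 to 42.9% GC, whereas the 22 others ran from 37.1 to 56.5% with a median of 49.7%. The median of all peaks away from promoters was 47.7%. The ranges overlapped.

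**Figure D2:**
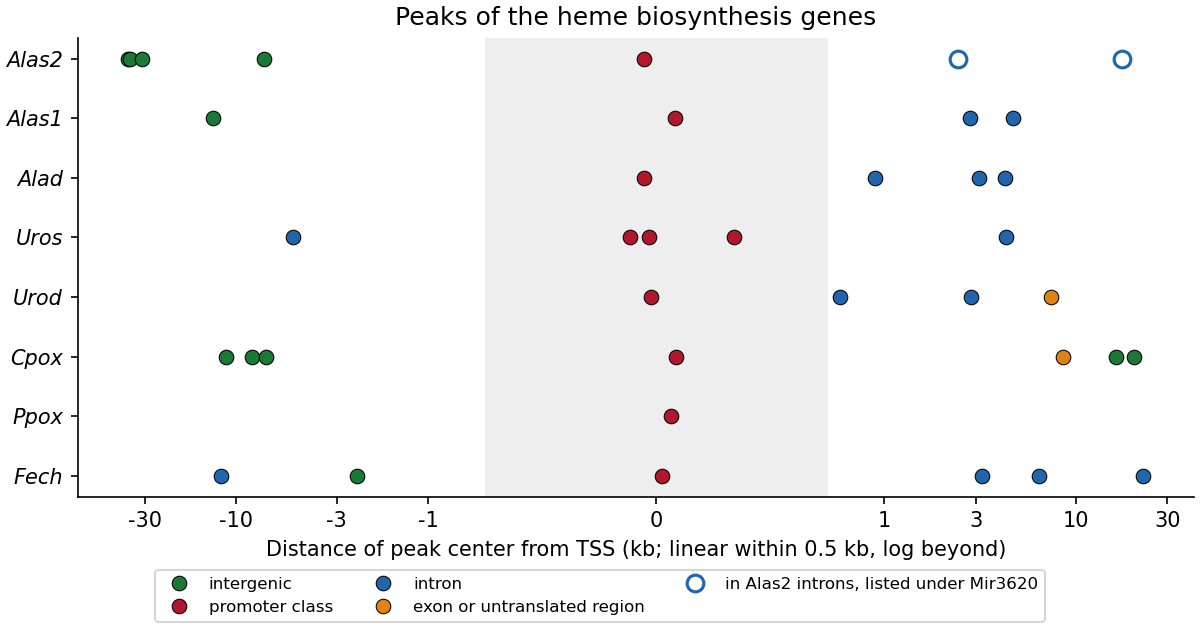
Signed distance of each peak center from its TSS in kb (linear within 500 bp, logarithmic beyond, negative values upstream) for the 8 genes, colored by annotation class, with the promoter range of 500 bp in gray. Filled Alas2 points stop at the promoter, and the open circles at 2412 and 17424 bp downstream are peaks within Alas2 that carry the name Mir3620.

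These differences in side, distance and GC depended on how peaks were named. Alas2 (chrX:150547417-150570622, plus strand, 11 exons, 23.2 kb) contained 2 peaks in its introns that the list assigned to another gene. The first (chrX:150549580-150550078) was in intron 1, 2412 bp downstream of the TSS, and the second (chrX:150564592-150565090) was in intron 8, 17424 bp downstream. Both were named Mir3620, at deposited distances of -2384 and -17396 bp. Mir3620 is a microRNA gene of 61 bp (chrX:150547385-150547445) on the opposite strand. It runs from its own TSS, 28 bp inside Alas2, to its end 32 bp before the Alas2 TSS. A peak within Alas2 is thereby nearer to the start of Mir3620 than to that of Alas2. These were the 2 peaks that Mir3620 had in the list.

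The intron 1 and intron 8 sites are of particular interest because the same introns of human ALAS2 are known as GATA1-bound erythroid enhancers. In the intron 1 peak, GATA words had their midpoints 10 and 28 bp from the center (TGATAA and, on the opposite strand, AGATAA). In the intron 8 peak they were 24 bp to the left and 12 bp to the right (AGATAG in both). Both peaks thus carried a close pair of GATA words near the peak center, as the capitals in the sequences above show. At least 2 words anywhere in the 499 bp were present in 25.4% of all peaks away from promoters. The share with a pair this close to the center was not counted. The Urod intron 1 peak likewise had words 38 and 20 bp from its center. With both Alas2 intron peaks included, Alas2 had 7 peaks. Its 6 away from the promoter then had a median distance of 24317.5 bp, with 1 within 5 kb and 2 downstream of the TSS. That median was close to that of all peaks away from promoters. The intron peaks had 47.3 and 51.1% GC, near the median of all peaks away from promoters, and the median of the 6 was 41.5%. Names of another gene were not restricted to Alas2, since 4 of the 23 peaks within members carried one, compared with 27.2% of the 43556 peaks within coding genes. The other cases were a peak in the last exon of Alad named Hdhd3 and a peak in the last exon of Uros named Mmp21. In all, 3 of the 8 members had such a peak, against 34.5% of the 12547 coding genes with a peak in their body.

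**Figure D3:**
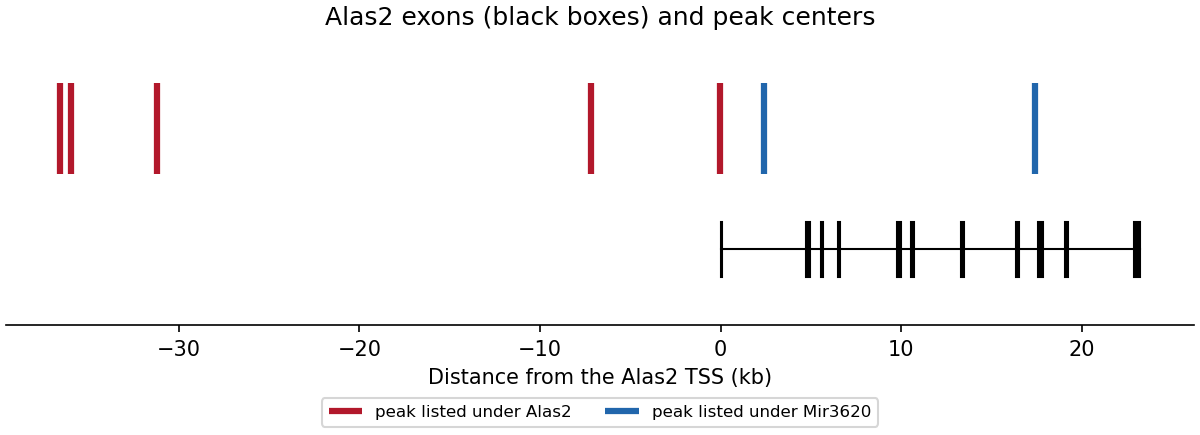
Exons of Alas2 (black boxes) and peak centers (vertical bars) by distance from the Alas2 TSS in kb. The 5 red bars, listed under Alas2, lie at and upstream of the TSS, and the 2 blue bars in introns 1 and 8 are listed under Mir3620.

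The number of peaks did not set Alas2 apart. It had 5 by name, as did Uros, and 31.8% of the 19040 genes with a peak had as many. Alas1, Alad and Urod had 4 each, Fech had 6, Cpox had 7 and Ppox had 1, and the median gene had 3. Cpox stood highest, but 19.6% of genes had as many peaks.

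**Figure D4:**
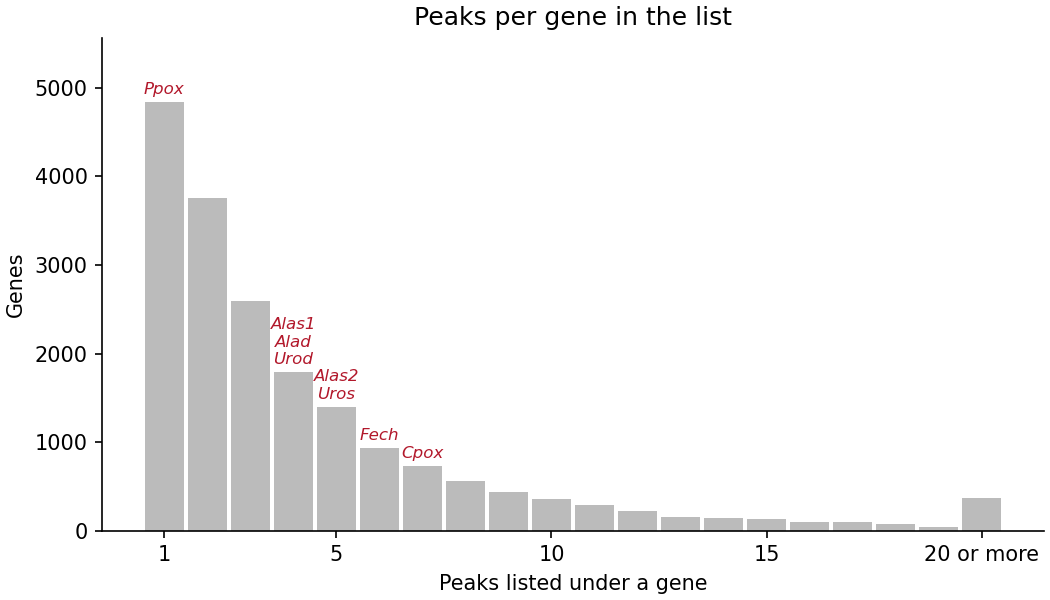
Number of genes (vertical axis) by number of peaks listed under them (horizontal axis, 20 or more in the last bar), with the 8 heme genes above the bar of their own count. Alas2 and Uros share the bar of 5 peaks, between Ppox with 1 and Cpox with 7.

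GATA words were counted over the 499 bp of each peak. Of the 10 promoter peaks, 7 held at least 1, compared with 25.0% of the 13171 promoter peaks in the list. The 7 included all 3 promoter peaks of Uros. At 1 promoter per gene, from 250 bp before to 50 bp after the Select TSS, the count was 3 of 8 members, compared with 25.8% of coding promoters. Of the 26 other peaks, 19 held at least 1, compared with 59.1% of the 71072 in the list. In the central 200 bp, 13 of the 26 did, compared with 30.7%. All 5 Alas2 peaks had a GATA word, with 10 words in total. Presence of the word was shared with most other members, since Cpox had it in 7 of 7 peaks and Fech in 6 of 6. Alas1, the other gene of the first step, had none in its 4 peaks. With the shorter word GATAA, its intron 2 peak had 1 match, and 50.4% of all peaks away from promoters had at least 1. A word is a match of letters and does not show that a factor was bound.

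**Figure D5:**
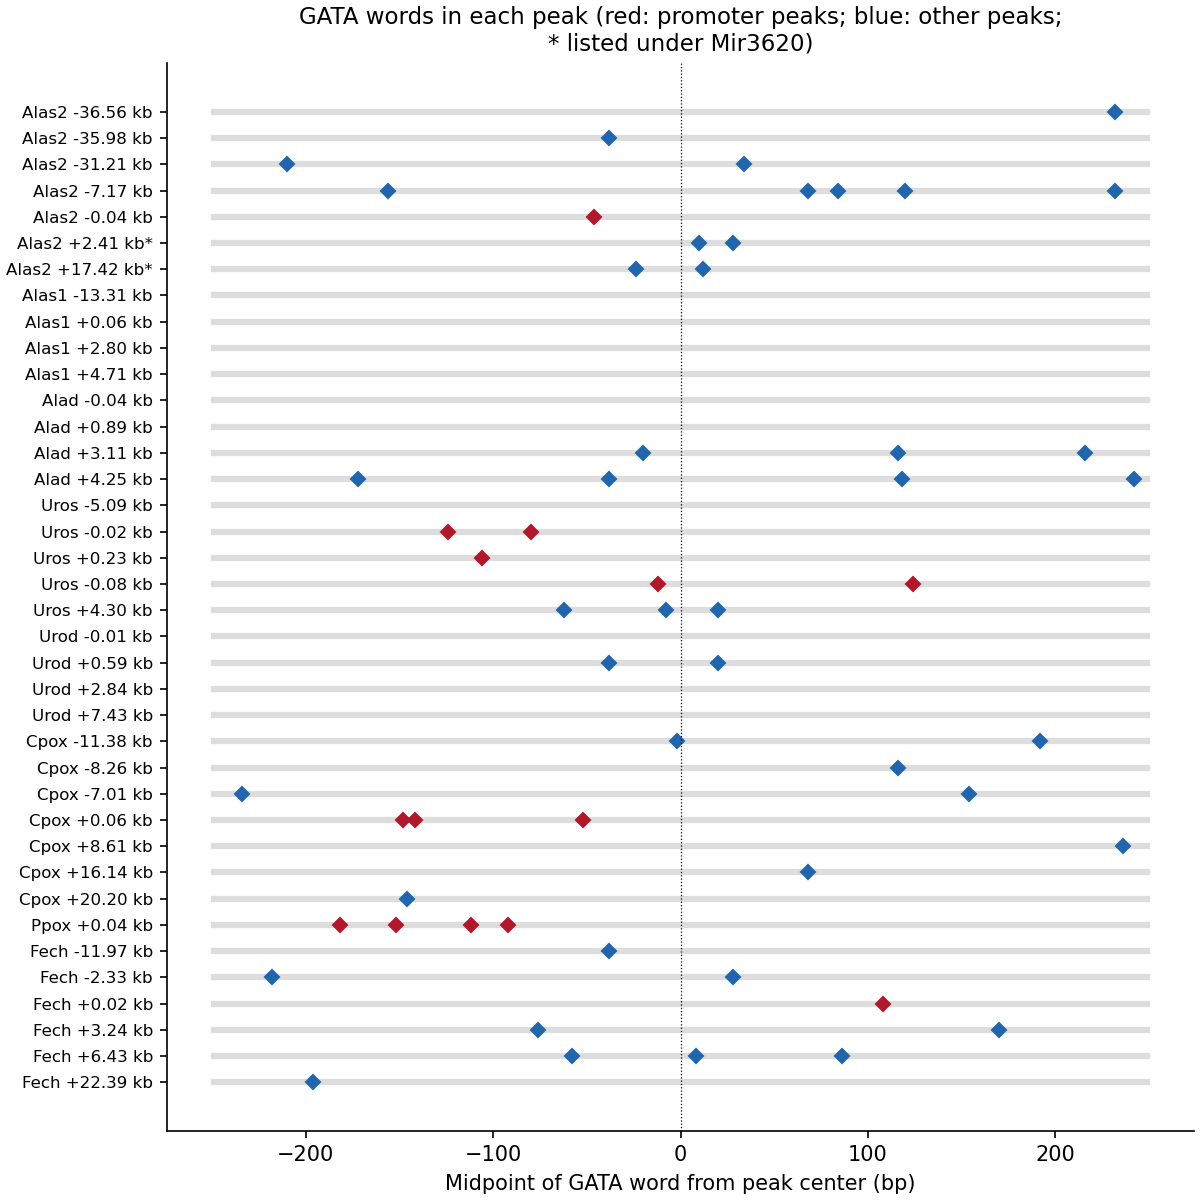
Midpoints of GATA words in bp from the center of each peak (horizontal axis, left to right along the plus strand of the chromosome), 1 gray bar of 499 bp per peak, red for promoter peaks and blue for others, with rows labeled by gene and distance from the TSS. All 4 Alas1 bars are empty, the Alas2 bar at 7171 bp upstream holds 5 words, and both Alas2 intron peaks (asterisks) have their words within 28 bp of the center.

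Alas2 and Alas1 catalyze the same reaction, the condensation that yields 5-aminolevulinate. The promoter peak of Alas2 (chrX:150547131-150547629) was centered 37 bp before the TSS, with 51.3% GC, 1 GATA word and 5 CACCC words. Some of these CACCC words overlapped each other, and the Sp word of the peak was part of a CACCC match. At least 5 CACCC words were present in 21.9% of promoter peaks. The peak 7171 bp upstream (chrX:150539997-150540495) held 5 GATA words, a number reached by 0.732% of peaks away from promoters. Its 36.7% GC was well under the median of the list. The peak at 31211 bp had 2 GATA words and overlapped an L1 repeat of the Lx8b family. The peaks at 35983 and 36564 bp had 1 GATA word each, and their centers were 581 bp apart.

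Alas1 (chr9:106233455-106247954, minus strand, 11 exons, 14.5 kb) had a promoter peak centered 55 bp after the TSS, with 67.9% GC and a CpG ratio of 0.92. Within exon 1 it held overlapping matches to the NRF1 word, 1 per strand, at 33 and 35 bp after the TSS. NRF1 governs many nuclear genes of mitochondria, and its word was in 5.77% of promoter peaks and in none of the other 9 member promoter peaks. Further peaks were in intron 2, 2801 bp after the nearest TSS, in intron 3 at 4706 bp, and in intergenic DNA 13314 bp upstream. The intron 2 peak contained TGAGTCA, the core shared by NF-E2 and AP-1, 64 bp from its center. That core (TGACTCA or TGAGTCA) was in 11.8% of peaks away from promoters.

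Alad joins a pair of 5-aminolevulinate molecules to porphobilinogen. Alad (chr4:62505984-62520063, minus strand, 12 exons) had a GC-rich promoter peak (68.5%) with 7 Sp words and no GATA word. Its 3 other peaks by name were all in intron 1, at 894, 3114 and 4249 bp after the TSS, with 0, 3 and 4 GATA words. At least 3 words were found in 8.63% and at least 4 in 2.55% of peaks away from promoters. By name, the GATA words of Alad were thus all in the first intron, and the last-exon peak named Hdhd3 held 1 more. Alad and Uros are known for separate housekeeping and erythroid first exons or promoters.

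Uros closes the tetrapyrrole ring. It had 3 curated TSSs on the minus strand (chr7:133686355-133710447), and each had a promoter peak. The peak at the Select TSS, centered 228 bp after it, was rich in CpG (ratio 0.74, 62.5% GC) and held 1 GATA word. This start was 38 bp from that of Bccip, on the opposite strand. The peak at the internal TSS lay in intron 1 of the Select transcript, with a ratio of 0.41 and 2 GATA words, of which a TGATAA was 65 bp before that TSS. The peak at the most upstream TSS, within Bccip, had a ratio of 0.14 and also 2 GATA words. Of its 3 starts, Uros therefore had 1 with the CpG content of the shared promoters and 2 with less, and the lowest was below that of the Alas2 promoter peak.

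A further Uros peak in intron 5 (chr7:133697949-133698447) was 4302 bp from the nearest TSS. It held 3 GATA words, 62, 8 and 20 bp from its center, and 1 composite of part of an E-box and GATA (CTG, then 7 or 8 free bases, then GATAA). Such a composite, the layout bound by TAL1 with GATA1, was in 4.37% of peaks away from promoters and 1.31% of promoter peaks. Among members it was in 2 of 26 peaks away from promoters and in 1 of 10 promoter peaks, that at the Select TSS of Uros. The last Uros peak was inside Bccip, 5091 bp upstream, with no GATA word.

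Urod removes carboxyl groups in the cytosol. The gene is compact (chr4:116989965-116994413, minus strand, 4.4 kb), and its TSS was 921 bp from the divergent TSS of Hectd3. With Uros, 2 of 8 members had a divergent TSS of any gene type within 1 kb, compared with 10.9% of coding genes. The Urod promoter peak, centered 14 bp before the TSS, had 3 Sp words, 3 CCAAT boxes and no GATA word. The next peak, 589 bp into the gene in intron 1, had 2 GATA words 38 and 20 bp from its center. Peaks in intron 7 at 2840 bp and in Zswim5 at 7433 bp had none, and the latter contained TGACTCA.

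Cpox carries out the oxidation that follows, in the space between the mitochondrial membranes. It had 7 peaks around a gene of 10.2 kb (chr16:58670208-58680391, plus strand), and each held a GATA word, 11 in total. The promoter peak, centered 59 bp after the TSS, held 3, a number reached by 1.05% of promoter peaks. Upstream peaks were at 7014, 8256 and 11384 bp, with 2, 1 and 2 words. The last of these had a word 2 bp from its center. Downstream peaks were in the last exon at 8609 bp and beyond the gene at 16145 and 20201 bp, with 1 word each. Cpox thus had the spread on both sides that Alas2 lacked by name. Its upstream peaks at 8256 and 11384 bp overlapped LTR repeats of the ERVL-MaLR group (ORR1E and MTE-int).

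Ppox makes protoporphyrin from its precursor. Its only peak (chr1:171280894-171281392) was at the promoter, centered 43 bp after the TSS of a gene of 4.2 kb. It held 4 GATA words, all in exon 1 between 136 and 225 bp after the TSS, and 4 CCAAT boxes. At least 4 GATA words were present in 0.243% of promoter peaks. Ppox therefore had its GATA words in the same peak as a CpG ratio of 0.72, where Alas2 had 1 word with a ratio of 0.19.

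Fech inserts the iron. The gene (chr18:64456542-64489098, minus strand, 32.6 kb) had 6 peaks with 10 GATA words. Its promoter peak, centered 18 bp after the TSS, was the richest in GC of the 36 (70.1%) and held 1 GATA word, 89 bp before the TSS. Peaks upstream at 2334 bp and, within Nars, at 11974 bp had 2 and 1 words. Introns 1, 2 and 6 had peaks at 3243, 6426 and 22394 bp, with 2, 3 and 1 words. The intron 2 peak combined 3 GATA words, 1 E-box and GATA composite and 2 TGACTCA cores, and its nearest GATA word was 8 bp from the center. The 11974 bp peak overlapped a B3 repeat. In all, 4 of the 26 other peaks had a repeat as their deposited annotation, compared with 17.9% of all peaks away from promoters.

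GATA words within the 100 bp before the Select TSS were counted after those of Alas2, Cpox and Fech had been seen. They were present in these 3 of 8 members, compared with 8.51% of coding promoters. From 250 bp before to 50 bp after the TSS, the same 3 members had a word, compared with 25.8% of coding promoters. The remaining word families are given as counts of members, each with the share of the list. CACCC words were in 7 of 10 promoter peaks (81.4% of the list) and 11 of 26 others (43.7%). Sp words were in 7 of 10 promoter peaks (75.7%) and 2 of 26 others (14.6%). CCAAT boxes were in 3 of 10 (44.3%) and 8 of 26 (45.5%). The ETS word CCGGAAG was in 2 of 10 (21.3%) and 1 of 26 (3.98%). The NF-E2 and AP-1 core was in 0 of 10 (4.97%) and 3 of 26, and the YY1 word ATGGCGG was in 0 of 10 (14.2%) and 0 of 26 (1.92%).

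Most other genes of heme and iron examined had a promoter peak as well. Of 22 genes for heme transport, regulation and breakdown and for iron supply, all 22 had a peak and 21 had a promoter peak, with 89 peaks in total. For promoter peaks the background is 58.9% of coding genes with a peak at the Select TSS. The share of coding genes with any peak was not counted. The presence of any peak in these genes or in the members thus has no background here. The median was 4 peaks per gene, compared with 3 for all genes with a peak. The exception was Slc25a37, the mitoferrin that carries iron into mitochondria of red cell precursors. It had 4 peaks, and the nearest was 31271 bp from its Select TSS. Fth1, the ferritin heavy chain, had the most peaks with 9, followed by Hmox1, the inducible heme oxygenase, with 7 and Aco1, an iron-responsive RNA-binding protein, with 6.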

How the data were processed

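ATAC-seq was performed on 12 samples of 6 cell types. Per the methods of the study, the ENCODE pipeline mapped reads to mm10 and called peaks. The authors joined the reproducible peaks of each cell type, kept non-overlapping peaks with chromVAR and annotated them with HOMER 4.10.2. They deposited 1 pooled list that gives each peak its position, its TSS distance in bp and a score of 0. It has no values per sample or cell type, so depth is unknown and nothing could be tested.

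Peaks were taken by deposited gene name. The 8 members, the wider list of 22 genes and the words were chosen with earlier results of these data known. A further gene of the wider list is not reported here. All members, the genes in or next to which their peaks lie, and in the wider list the 3 genes with the most peaks and those without a promoter peak, are named. For all 36 member peaks, the size of the deposited distance differed by at most 2 bp from that to the nearest curated TSS in RefSeq GRCm38.p6. RefSeq also gave exons, sequence and 1 Select TSS for each of 20963 coding genes. Words of 9 families were searched on both strands. A start matched on both strands was counted once. The observed-to-expected CpG ratio is the CpG count times length over the product of C and G counts. The word search was tested on simulated data for 4 of the 9 families, where it found 2000 of 2000 planted sites in 4000 sequences. No Fech sequence is printed. Alternatives changed the promoter limit, the assignment of peaks, the GATA word, the promoter window and the gene set. Python 3.11.15, numpy 2.4.6, pandas 2.3.3, pysam 0.24.0 and matplotlib 3.10.9 were used.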

Additional observations from a re-analysis of the deposited data

How the results depend on the processing

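Of 32 alternative counts for 10 results, 27 stayed within 1.5 times the reported value and 5 moved further. Alas2 had 3 peaks, in place of 5, when peaks overlapping the gene body plus 5 kb were counted, and 10 under a basal plus extension rule (2 kb before to 1 kb after the TSS, extended to the next gene by up to 1 Mb). That rule gave 44 member peaks away from promoters in place of 26. With AGATAA as the sole GATA word, 17 member peaks in place of 26 had a match, and 12 in place of 19 away from promoters, while the share of the whole list fell as well, to 26.9% away from promoters and 8.66% at them. Assignment to the nearest Select TSS of coding genes gave Alas2 7 peaks, both intron peaks included. The number of members with a promoter peak was 8 under every definition and assignment tried. With a limit of 100 bp, Alad and Uros met it at other TSSs. Their nearest peak centers were 119 and 228 bp from the Select TSS. No paired analysis was possible because the list holds no value per sample, and no replicate could be left out for the same reason.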
